A study of Drosophila melanogaster with 2 samples.

Results

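The genes described here encode the proteins of the mitochondrial ribosome of Drosophila melanogaster. They are the 73 protein-coding genes of the Ensembl annotation whose symbol begins with mRpL or mRpS and a digit, out of 13945 protein-coding genes on the main chromosome arms. Of the 73, 47 are named for the large subunit and 26 for the small subunit. They were examined in an anti-GFP chromatin immunoprecipitation from whole pupae aged 1 day, in transgenic flies of the strain CG12605-GFP that express CG12605 fused to eGFP. CG12605 is a zinc finger protein related to Snail and Scratch. The 2 libraries are biological replicates of that 1 group. No second genotype, treatment or stage was analysed here, and no test between groups was made. Every value is therefore a description of where peaks of the anti-GFP immunoprecipitation lay. The labels do not give the sex of the animals, how many animals went into a library, or what drives the transgene. The values are those of whole animals, so a peak cannot be given to a tissue.

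Mitochondria translate a small set of membrane proteins of the respiratory chain with ribosomes of their own. The ribosomal RNAs come from the mitochondrial genome, whereas all of the ribosomal proteins are encoded in the nucleus, made in the cytoplasm and imported. Some of these proteins have bacterial counterparts, and others are found only in mitochondrial ribosomes. The nuclear genes are spread over the genome, and many share a short promoter region with a gene that runs the other way.

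A gene is called bound here when a peak had its summit at most 1000 bp from a transcription start site annotated for it. The peaks are those of the authors' conservative list, kept for ranks that repeat between the replicates by the irreproducible discovery rate (IDR), unless another list is named. The signal value is the peak's own, as deposited by the authors. No source used here gives the scaling of that value, so it is compared only within a list, and the values of the conservative list are not on the scale of the replicates' lists. The lists held 6776 peaks (conservative), 4022 (replicate 1) and 5394 (replicate 2). Read depth is unknown for both libraries, and the control was not analysed here. Background that gathers at open promoters was therefore not tested at any gene.

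A summit lay at 20 of the 73 mitochondrial ribosomal protein genes (27.4%), against 3223 of all 13945 protein-coding genes (23.1%). The share is close to that of all genes, so the number of bound genes is not a result about this group. By subunit, 9 of the 26 small subunit genes (34.6%) and 11 of the 47 large subunit genes (23.4%) were bound. The order of the subunits was not the same in every list: in the thresholded list of replicate 2 it was 23.1% of the small and 25.5% of the large subunit genes, and in the ranked list of the conservative peaks 57.7% and 70.2%. The genes themselves differed by a wide margin in height and in arrangement, which the following paragraphs describe.

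The summit sequences of strong peaks show the kind of DNA under them. The windows below span 50 bp on either side of the summit, on the plus strand of the Release 6 assembly (dm6 coordinates), and capitals mark matches to the motifs searched. They are the 6 strongest bound genes whose window holds no annotated untranslated exon, leaving out arms whose sequence is not shown.
mRpS23, chr2L:13835410-13835510: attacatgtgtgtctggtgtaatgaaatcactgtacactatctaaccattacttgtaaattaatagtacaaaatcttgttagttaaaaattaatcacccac
mRpS10, chr3R:15229488-15229588: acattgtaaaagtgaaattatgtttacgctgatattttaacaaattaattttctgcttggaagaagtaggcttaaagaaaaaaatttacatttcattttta
mRpL24, chr2L:4945439-4945539: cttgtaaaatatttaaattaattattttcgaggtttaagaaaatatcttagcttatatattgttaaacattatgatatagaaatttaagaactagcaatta
mRpL20, chr3L:13018095-13018195: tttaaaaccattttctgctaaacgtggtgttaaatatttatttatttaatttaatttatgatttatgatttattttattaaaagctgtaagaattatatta
mRpL2, chr3L:11120433-11120533: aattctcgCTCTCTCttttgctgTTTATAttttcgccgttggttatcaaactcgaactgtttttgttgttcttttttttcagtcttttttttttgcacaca
mRpS2, chr2L:4850533-4850633: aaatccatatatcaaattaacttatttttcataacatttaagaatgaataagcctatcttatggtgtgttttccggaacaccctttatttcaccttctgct
These windows were rich in A and T. Their GC content was 28.7% at mRpS23, 22.8% at mRpS10, 17.8% at mRpL24, 15.8% at mRpL20, 32.7% at mRpL2 and 29.7% at mRpS2. Only the mRpL2 window held a searched motif: GAGAG, the site of GAGA factor, read on the other strand, and TATAAA, also on the other strand.

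The strongest peak stood upstream of mRpS23, a small subunit protein with no bacterial counterpart. Its signal was 1053 in the conservative list, with 523 in the list of replicate 1 and 517 in that of replicate 2. It exceeded 99.9% of all conservative peaks. The summit lay on 2L at 13835460, 388 bp upstream of mRpS23 (FBgn0260407, 2L 13834250 to 13835072, minus strand). It lay closer, at 104 bp, to the start site of CenG1A, an Arf GTPase-activating protein gene on the opposite strand. The summit thus stood between a pair of start sites 492 bp apart, outside either gene.

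mRpS10, a small subunit protein with a bacterial counterpart, had the next highest peak, at 976 in the conservative list, 500.4 in replicate 1 and 478 in replicate 2. The summit, on 3R at 15229538, lay 127 bp upstream of mRpS10 (FBgn0038307, 3R 15229665 to 15230516, plus strand) and 130 bp upstream of Art3, an arginine methyltransferase gene. It thus fell almost midway between the start sites, which lie 257 bp apart.

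mRpL41, a large subunit protein found only in mitochondrial ribosomes, had a signal of 894 in the conservative list, 407 in replicate 1 and 484 in replicate 2. The summit, on 2R at 15217764, lay 147 bp upstream of mRpL41 (FBgn0034001, 2R 15217024 to 15217617, minus strand) and 615 bp from the start site of CG8079. These 3 peaks stood far above those of the other genes of the group, and each was present in the thresholded lists of both replicates.

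Peaks of intermediate height followed at genes of the large subunit. mRpL23, whose bacterial counterpart sits at the exit of the peptide tunnel, had 571 in the conservative list, 264 in replicate 1 and 305 in replicate 2. Its summit, on 3L at 2373595, was 1 of the 2 that lay downstream of the start site, 83 bp past the nearest of its 3 starts (FBgn0035335, 3L 2372844 to 2373704, minus strand), in an intron. mRpL24, another protein of the tunnel exit region in bacteria, had 412, 196 and 221 in the same lists.

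The mRpL24 summit lay on 2L at 4945489, 128 bp upstream of its start site (FBgn0031651, 2L 4944256 to 4945361, minus strand) and 90 bp from that of betaggt-I, which encodes a subunit of a protein prenyltransferase. mRpL20, whose bacterial counterpart acts in early assembly of the large subunit, had 352 in the conservative list, 179 in replicate 1 and 181 in replicate 2. Its summit, on 3L at 13018145, lay 278 bp upstream (FBgn0036335, 3L 13017149 to 13017867, minus strand) and 121 bp from Icmt, which encodes a methyltransferase of prenylated proteins. Within each replicate's ranked list these 3 peaks stood at percentiles from 99.4 to 99.8.

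Lower peaks stood at mRpS31, mRpL2 and mRpS2. mRpS31, a mitochondria-specific small subunit protein, had 228 in the conservative list, with 89.0 in replicate 1 and 146 in replicate 2 (3L, summit 16004649, 544 bp upstream). mRpL2, which sits near the peptidyl transferase centre, had 213, with 72.4 and 151 (3L, summit 11120483, 364 bp upstream). mRpS2, a small subunit protein, had 155, with 50.3 and 100.2 (2L, summit 4850583, 164 bp upstream).

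These 3 summits lay nearest to other genes, namely hzg, the forkhead factor gene FoxK at 72 bp, and Mon1, an endosome maturation gene, at 58 bp. mRpS11, a protein of the small subunit platform, completed the 10 strongest at 115, with 42.1 in replicate 1 and 70.4 in replicate 2 (3R, summit 17072704, 28 bp upstream). The replicate 1 peak at mRpS11 was in the ranked list only. The 9 genes above it were present in the thresholded lists of both replicates.

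**Figure D1:**
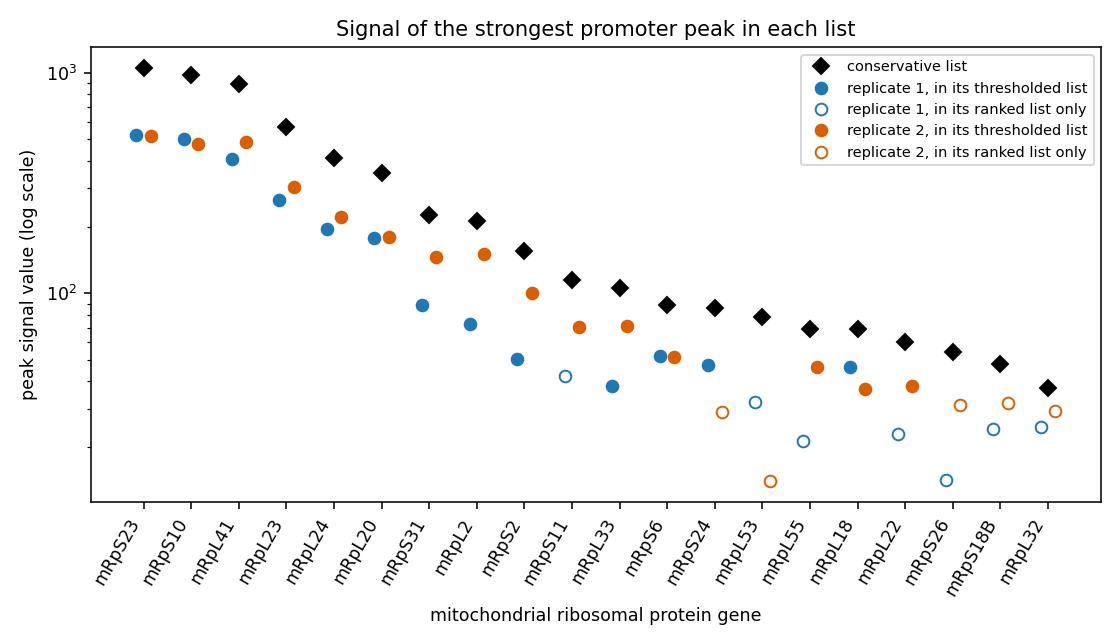
Signal value of the strongest promoter peak (log axis) at each of the 20 bound mitochondrial ribosomal protein genes, in the conservative list (black diamonds) and in the lists of replicate 1 (blue) and replicate 2 (orange). Filled circles are peaks in a replicate's thresholded list, and open circles are peaks in its ranked list alone; each circle is that list's strongest peak within 1000 bp of the gene's start sites, which at mRpL53, mRpS26 and mRpL32 is not always the one that overlaps the conservative peak; the 9 strongest genes have filled circles for both replicates.

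The other 10 bound genes had signals from 37.4 to 105 in the conservative list. mRpL33 had 105, mRpS6 88.8, mRpS24 85.5, mRpL53 78.2, mRpL55 69.2, mRpL18 68.6 and mRpL22 60.1. The lowest 3 were mRpS26 at 54.3, mRpS18B at 47.9 and mRpL32 at 37.4. In bacteria the counterpart of mRpL18 binds a ribosomal RNA of the large subunit and that of mRpL22 lines the peptide tunnel.

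Support by both replicates was uneven among them. The peak overlapped one in the thresholded list of each replicate, by at least 1 bp, at 12 of the 20 bound genes (60%), against 55.1% of all bound genes. Of the 10 strongest, 9 had such support, and of the other 10, mRpL33, mRpS6 and mRpL18 did. At mRpL53 the peak overlapped one of 32.0 in the ranked list of replicate 1, but none in either list of replicate 2, and it was absent from the series-level thresholded list. The strongest replicate 2 peak within 1000 bp of the mRpL53 start site, at 14.04, was another one. mRpS26, mRpS18B and mRpL32 were also in neither replicate's thresholded list.

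The group held a larger share of very high peaks than bound genes at large. The median signal was 110 over the 20 genes and 98.1 over all 3223 bound genes. Signals above 213, the 90th percentile of all conservative peaks, were found at 8 of the 20 (40%), against 15.4% of all bound genes. The 8 were mRpS23, mRpS10, mRpL41, mRpL23, mRpL24, mRpL20, mRpS31 and, at the limit itself, mRpL2. Signals above the median of all conservative peaks, 85.6, were found at 12 of the 20 (60%), against 60.3%. The small subunit genes that were bound had a median signal of 115 and those of the large subunit 105. No test was made of these differences.

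All 20 bound genes shared their summit with another gene. At each of them the start site of a protein-coding gene that runs head to head with it, away from it on the opposite strand, lay within 1000 bp of the summit. This was so at 43.2% of all bound genes. Any other start site, whatever its strand, lay that close to the summit at 48.8% of all bound genes. The nearest such site belonged to the head-to-head partner at 19 of the 20. At mRpL55 it was that of cdi, a kinase gene on the same strand, with ATPsynD, a subunit of the ATP synthase, as the head-to-head gene.

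Start sites of the 19 head-to-head pairs lay 20 to 762 bp apart, with a median of 421 bp, and at 13 of them the summit lay between the start sites. Among the partners were norpA, the phospholipase of phototransduction, Apc2, a relative of the tumour suppressor APC, and AGO1, the Argonaute of the microRNA pathway. Others were Taz, the cardiolipin remodelling enzyme tafazzin, if, an alpha integrin, and qless, an enzyme of coenzyme Q synthesis. The partner of mRpS11 was Ns1, a nucleostemin, at 29 bp from the summit.

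**Figure D2:**
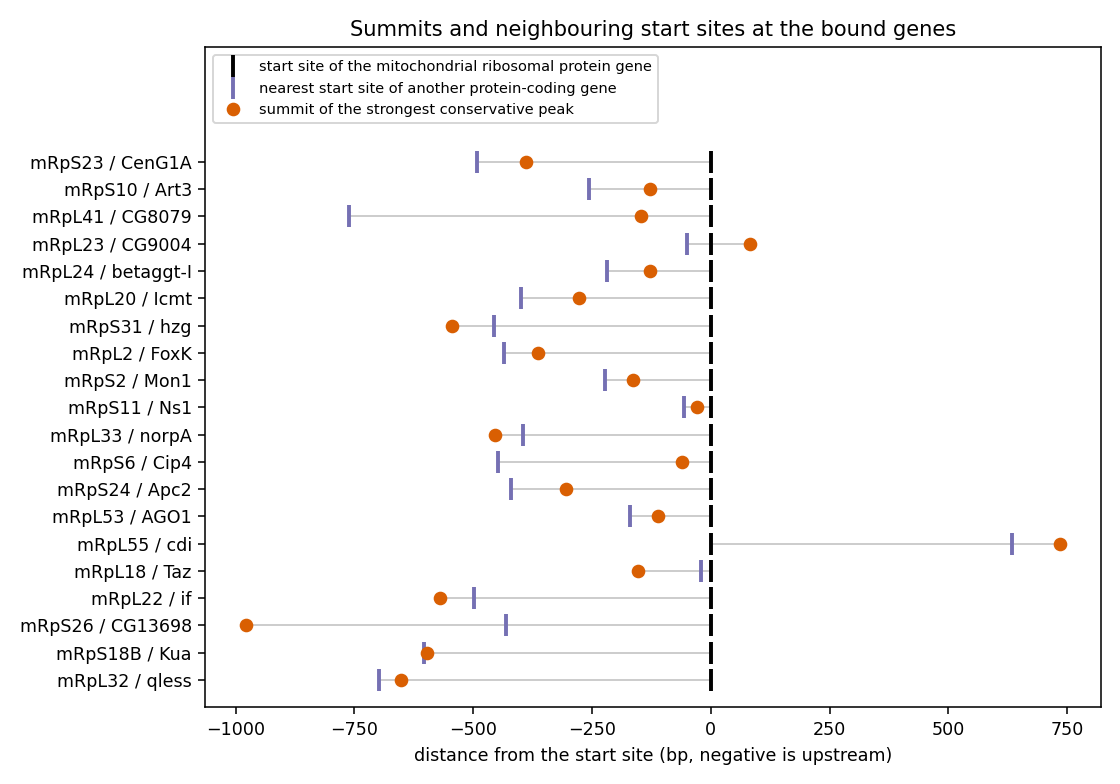
Position of the strongest conservative summit (orange circles) and of the nearest start site of another protein-coding gene (purple bars) at the 20 bound genes, in bp from the start site of the mitochondrial ribosomal protein gene (black bars at 0, upstream to the left). Rows run from the highest signal (mRpS23) to the lowest (mRpL32); 18 of the 20 summits lie upstream.

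Most of these summits lay nearer to the partner than to the mitochondrial ribosomal protein gene. The gene's own start site was the nearest at 5 of the 20 (25%), namely mRpS10, mRpL41, mRpL23, mRpS11 and mRpS6, against 75.7% of all bound genes. A gene with no other start site within 1000 bp of its summit counts as nearest by definition. Another start site lay that close at all 20 genes but at only 48.8% of all bound genes. The contrast therefore partly restates the sharing of summits, and no share was taken over genes with a shared summit alone. With a peak given only to the gene of the nearest start site, 6 of the 73 genes (8.22%) were bound, against 18.1% of all genes. The sixth was mRpL18, through a second and weaker peak of 20.7 at 12756488, 54 bp from its start site. mRpS6 also had a second peak, of 56.2, at 4363965. The other 18 bound genes had a single peak each. Whether the fusion protein acts on either gene of a pair cannot be told from peak positions.

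The arrangement was common in the whole group, bound or not. Of the 73 genes, 58 (79.5%) had a head-to-head start site within 1000 bp of their own, against 36.0% of all protein-coding genes. Of these 58, 20 (34.5%) were bound, against 32.2% of all genes so arranged. Counting any other start site, 60 of the 73 genes (82.2%) had one within 1000 bp of their own, against 42.9% of all genes. Of the 60, 20 (33.3%) were bound, against 30.1% of all genes with such a neighbour. Of the 13 without one, 0 were bound, against 17.8% of all genes without one. The 13 were few, and the difference was not tested.

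**Figure D3:**
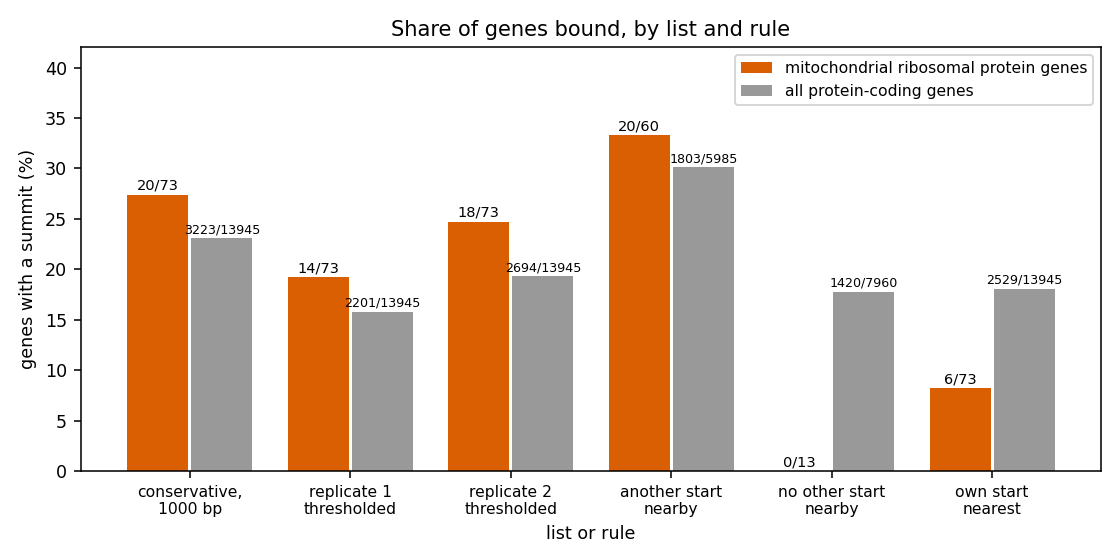
Share of genes with a summit (%) among the mitochondrial ribosomal protein genes (orange) and all protein-coding genes (grey), with counts over the bars, in the conservative list, in each replicate's thresholded list, and in the conservative list for genes with or without another start site within 1000 bp or where the gene has the nearest start site. The shares are close to each other in the first 4 pairs, and lower for the mitochondrial ribosomal protein genes in the last 2 (0 of 13 and 6 of 73).

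The bound genes lay on 3L (6 of the 17 genes of the group there), 3R (5 of 21), 2L (4 of 12), 2R (3 of 12) and X (2 of 11). Their summits lay mostly upstream. Of the 20, 18 (90%) lay upstream of the nearest own start site, against 71.0% of all bound genes; the exceptions were mRpL23 and mRpL55. The median distance was 292 bp, against 182 bp over all bound genes, and 9 of the 20 (45%) lay within 200 bp, against 53.6%. The farthest was mRpS26 at 978 bp. Of the 20 summits, 9 lay outside protein-coding genes, and the others lay in untranslated exons or introns of a neighbouring gene or, at mRpL23, of the gene itself. Just outside the limit, the nearest conservative summits of mRpL34, mRpL27 and mRpS7 lay 1182, 1220 and 1418 bp from their start sites.

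High signal went with low GC among these genes. Within 50 bp of the summit, GC averaged 27.4% ± 9.92 (SD) over the 10 strongest and 45.3% ± 12.3 (SD) over the 10 weakest of the bound genes. Among the 10 strongest, mRpS11 stood apart at 50.5%, and the other 9 ran from 15.8 to 32.7%. Among the 10 weakest, mRpS24 had 19.8% and mRpL18 had 59.4%. Across the 20 peaks, signal and GC had a Spearman coefficient of -0.795, against -0.302 over all 3223 bound genes. The peaks of a list share their libraries, so the coefficients are descriptions. Over all 20 genes, GC averaged 36.4% ± 14.2 (SD), against 39.4% ± 12.3 (SD) over all bound genes.

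**Figure D4:**
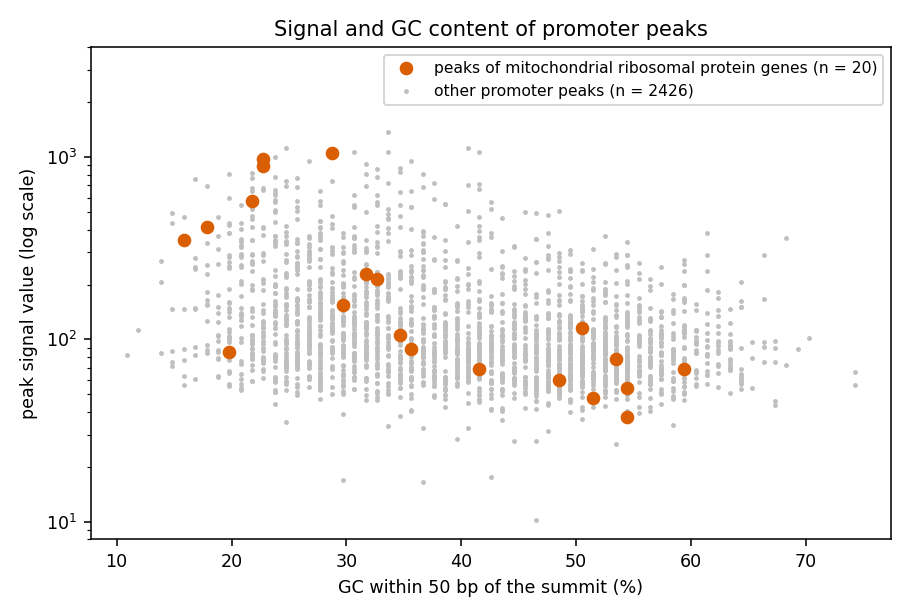
Signal value (log axis) against GC content within 50 bp of the summit (%), for the 20 conservative peaks of mitochondrial ribosomal protein genes (orange) and the other conservative promoter peaks (grey). The 9 strongest orange points lie at a GC content of 15.8 to 32.7%, and the weaker ones spread up to 59.4%.

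Promoters of these genes often held an E-box. Motifs were searched on both strands from 250 bp before to 50 bp after the outermost start site. AACAGCTG, an E-box known as a core promoter motif in flies, was present in 27 of the 73 promoters (37%), against 7.61% of all protein-coding genes. Of the 20 bound genes 12 (60%) had it, against 11.0% of all bound genes. Of the 53 others, 15 (28.3%) had it. It was found at 18 large and 9 small subunit genes. In 25 of the 27, or 92.6%, the match nearest the start began within 50 bp of it, against 59.2% over all genes with a match.

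The 30 bases around the match nearest the start are shown for the bound genes, on the strand of the gene, 5′ to 3′, in order of signal and leaving out arms whose sequence is not shown. Capitals mark the match in either orientation.
mRpL23, chr3L:2373714-2373743, minus strand: tggttgacaatCAGCTGTTtaaaacaagtg
mRpL24, chr2L:4945325-4945354, minus strand: cttcagttctcAACAGCTGattgcaagccg
mRpL2, chr3L:11120844-11120873, plus strand: caacgccgcgtAACAGCTGttttcagccgc
mRpS2, chr2L:4850412-4850441, minus strand: acactacccacCAGCTGTTtaccaaaatcg
mRpL33, chrX:4322206-4322235, minus strand: ataggcgcagtCAGCTGTTcttcgttccta
mRpS6, chr3L:4364553-4364582, plus strand: tttccttgcatCAGCTGTTaacactatcag
mRpS24, chr3R:24163507-24163536, minus strand: gtcacgtcaatCAGCTGTTgctggacgcaa
mRpS18B, chr2L:20097217-20097246, minus strand: atgtatcggaaAACAGCTGatccgccggct
mRpL32, chr3R:31252845-31252874, plus strand: tatcgatagcaCAGCTGTTtcctcttgcgc
In the 12 bound genes that had the E-box, the match nearest the start lay 77 to 639 bp from the summit. The median was 154 bp. The promoter search reached 250 bp before the start, so summits farther upstream lay outside the window searched. Within 50 bp of the summit, 0 of the 20 peaks held AACAGCTG, against 1.92% of all 2446 promoter peaks. These counts describe letters in windows and say nothing of which factor is present.

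The sites read by Snail and Scratch proteins had shares in the group close to those over all genes. CAACAGGTG, the longer site bound by Scratch proteins, was in 0 of the 73 promoters, against 0.409% of all genes, and in 0 of the 20 summit windows, against 1.31% of all promoter peaks. Its core CACCTG was in 6 of the 73 promoters (8.22%), against 9.32% of all genes. All 6 were unbound genes, and 8.94% of all bound genes had the core. From 500 bp before to 100 bp after the start, 2 of the 20 bound genes (10%) had it, against 19% of all bound genes. At summits it was found once, at mRpL32, the weakest of the bound genes, or 5% of the 20 windows, against 4.25%. AACAGCTG holds neither of these sites.

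Among core promoter motifs, TATCGATA, the site of the factor DREF, was in 15 promoters (20.5%), against 9.36% of all genes. The 5 bound genes that held it were mRpL20, mRpL22, mRpL32, mRpS18B and mRpS23. GGTCACACT, the motif of M1BP, was in 8 promoters (11%), against 6.05%. GAGAG was in 12 (16.4%), against 29.7% of all genes. Of the 20 bound genes 5 (25%) held it, against 37.1% of all bound genes. TATAAA was in 34 (46.6%), against 45.8%, and CAGCNCTA in 3 (4.11%), against 3.56%. A word of the element described in fly genes for mitochondrial proteins (TTACATAA, TTACGTAA, TTATATAA or TTATGTAA) was in 6 (8.22%), against 5.18%.

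**Figure D5:**
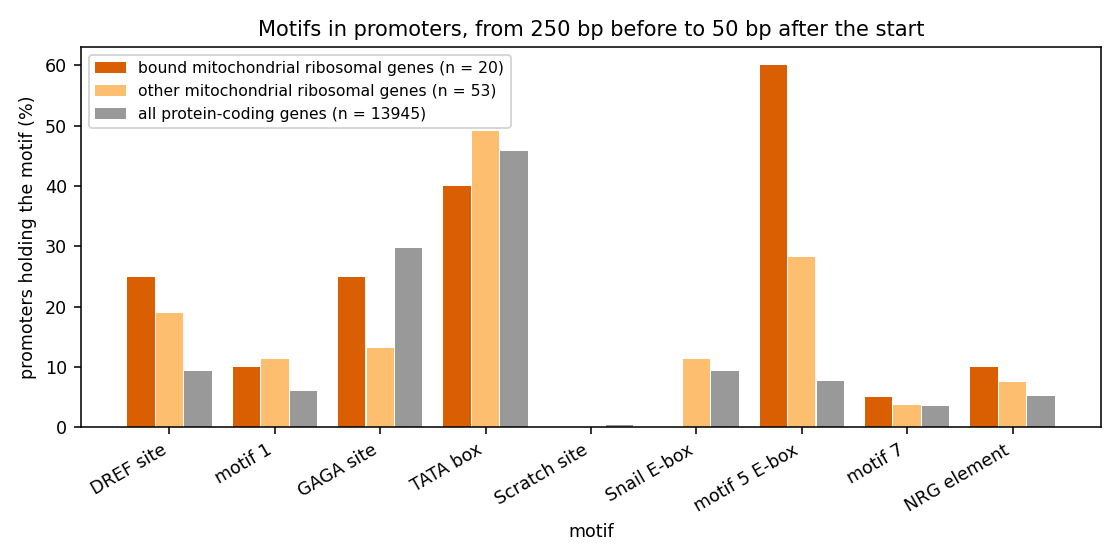
Share of promoters (%) that hold each motif, from 250 bp before to 50 bp after the start site, for the 20 bound mitochondrial ribosomal protein genes (dark orange), the other 53 (light orange) and all protein-coding genes (grey). The motif 5 E-box is AACAGCTG, which 60% of the bound genes hold, and the Scratch site, absent from both groups of mitochondrial ribosomal protein genes, is CAACAGGTG.

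The lists of each replicate alone gave similar counts. In the thresholded list of replicate 1, 14 of the 73 genes (19.2%) were bound, against 15.8% of all genes. In that of replicate 2, 18 (24.7%) were bound, against 19.3%. Of the genes not bound in the conservative list, mRpS7 was in the thresholded list of replicate 1 at 46.6, and had 50.001 in the ranked list of replicate 2. mRpL34 at 38.8, mRpL54 at 36.9 and mRpL4 at 35.8 were in that of replicate 2, with 33.0, 19.9 and 11.8 in the ranked list of replicate 1. In the series-level thresholded list 16 genes (21.9%) were bound, against 23.6% of all genes. mRpL53, mRpL55, mRpS18B and mRpL32 were not among them.

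Other limits changed most of the counts. With the summit within 500 bp, 14 genes (19.2%) were bound, against 19.3% of all genes, and within 2000 bp 27 (37%) were, against 28.7%. Peaks at the top IDR score alone left 15 (20.5%), against 19.2%, and peaks at or above the median signal of the list left 12 (16.4%), against 13.9%. With the outermost start site alone, 20 (27.4%) were still bound, against 21.0% of all genes.

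The ranked lists, most of whose peaks do not meet the IDR limit, reached most of the genes. The ranked list of the conservative peaks held a summit at 48 genes (65.8%), against 60.2% of all genes. The ranked list of replicate 1 held one at 51 (69.9%), against 62.7%, and that of replicate 2 at 56 (76.7%), against 61.4%. Of the 53 genes not bound in the conservative list, 28 (52.8%) had a summit in its ranked list, against 48.2% of all unbound genes. The signals of the 28 ran from 12.8 to 67.4 with a median of 28.6, against a median of 28.5 over all unbound genes with such a summit. The highest was mRpL34, followed by mRpL43 at 41.5.

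A summit in the ranked lists of both replicates was found at 22 of the 53 (41.5%), against 36.7% of all unbound genes. In none of the lists did 7 genes (9.59%) have a summit within 1000 bp, namely mRpL15, mRpL37, mRpL40, mRpL48, mRpL50, mRpS9 and mRpS35, against 24.7% of all genes without one in any ranked list. The nearest conservative summit lay a median of 6823 bp from the start sites of the 53, and for mRpS5 on 3L it lay 1658340 bp away.

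Other genes of mitochondrial gene expression were set beside the group. Of all protein-coding genes 23.1% were bound, and most of these lists are short. tko and bonsai, which encode mitochondrial ribosomal proteins under other names, were not bound. Of 9 mitochondrial translation factors, 1 (11.1%) was bound: the initiation factor gene mIF2, at 114, with a summit 103 bp upstream and no other start site within 1000 bp of it. Of 15 mitochondrial aminoacyl-tRNA synthetase genes, 2 (13.3%) were bound, LeuRS-m at 208 and ArgRS-m at 54.4.

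Of 18 genes for mitochondrial transcription and RNA handling, 7 (38.9%) were bound, against 23.1% of all protein-coding genes. They were PNPase, a polynucleotide phosphorylase, at 1065, the RNA-binding protein gene SLIRP2 at 466, mtTFB1 at 183, scu, a subunit of mitochondrial RNase P, at 148, SLIRP1 at 67.9, mTerf5 at 62.0 and the helicase gene Suv3 at 58.7. Each of these 7 shared its summit with the start region of another gene. For the groups most like it, 58 of 92 cytoplasmic ribosomal protein genes (63%) and 13 of 80 oxidative phosphorylation genes (16.2%) were bound, with median signals of 94.6 and 77.05. The median was 110 for the bound mitochondrial ribosomal protein genes, 148 for the 7 transcription and RNA genes and 131 for the 2 synthetase genes. Another start site lay within 1000 bp of the gene's own at 82.2% of the mitochondrial ribosomal protein genes. The share was 63% for the cytoplasmic ones and 60% for the oxidative phosphorylation genes. It was 88.9% for the mitochondrial transcription and RNA genes, 46.7% for the synthetase genes and 33.3% for the translation factors. The differences between these groups were not tested.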

How the data were processed

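Chromatin immunoprecipitation with sequencing was carried out on 2 biological replicates of whole pupae. Per the labels, the chromatin was sonicated to a stated size range of 200 to 800. The authors deposited 8 peak lists on dm6, derived from read alignments and a control alignment per the text deposited with the samples. No aligner or peak caller is named in the sources used here. Each peak's signal value and summit offset are the authors' own, and its deposited score holds the IDR, at most 0.01 in the thresholded lists. In the series-level ranked lists, 4 further signal columns carry no sample names and were not used. Depth is unknown.

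Summits (column 2 plus column 10, counted from 1) were placed on start sites of the Ensembl 115 annotation. All 73 genes have the same coordinates in RefSeq's table for the Release 6 assembly, from which sequences were read. Python 3.11.15, numpy 2.4.6 and pandas 2.3.3 were used, and the bound call was checked on planted summits. Peaks were called per replicate or over both, so shares are given without tests. Named genes are all bound members, with full values for the 10 strongest, those in a replicate's list alone, and those in no list. The members, gene lists and motifs were chosen with earlier results of these data known. The list names mEFG2 and mtRF1a matched no gene, and Dap3 is among the 73 as mRpS29.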

Additional observations from a re-analysis of the deposited data

How the results depend on the processing

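Of the 43 alternatives tried, 23 left their result within the limits set (a factor of 1.5 for a count, the difference between replicates for a level). The count of 20 bound genes was 14 and 18 with a single replicate's list, 48 in the ranked list, 12 among peaks at or above the list's median signal, 6 with the nearest start site alone and 0 among genes with no other start site within 1000 bp. The median signal of 110 became 184 within 500 bp, 116 within 2000 bp and 343 with the nearest start site alone. It was 80.7 and 85.6 in the replicates' lists, which have their own scale. Both were counted as outside the limits, although values on unlike scales cannot show whether the level moved. No median could be given for genes with no other start site nearby, since 0 were bound. Support in both replicates was 19 of 20 with the ranked lists. Summit GC was 27.8% and 34.6% in the replicates' lists, and 90% of summits lay upstream, against 92.9% and 83.3% in those lists. With promoters of 500 bp before to 100 bp after the start, GGTCACACT was in 14 (19.2%), against 7.6% of all genes. GAGAG was in 32 (43.8%), against 47%, and CACCTG in 12 (16.4%), against 19.6%. CAGCNCTA was in 10 (13.7%), against 5.99%, and the mitochondrial element in 16 (21.9%), against 10.6%. Within 50 bp of the start, GAGAG was in 6 (8.22%), against 11.5% of all genes. TATAAA was in 9 (12.3%), against 17%, and CACCTG in 2 (2.74%), against 3.44%. CAGCNCTA was in 0, against 1.86%, and the mitochondrial element in 4 (5.48%), against 0.853%. AACAGCTG was in 28 and 25 under these windows. The causes were not tested. No paired analysis was possible because there is a single group. Depth is unknown, so a weak or missing peak cannot be told from a shallow library.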

Other observations

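The E-box AACAGCTG was also counted in promoters of the other gene lists, a count added after its share in the mitochondrial ribosomal protein genes had been seen. It was in the promoters of both tko and bonsai, of 5 of 9 mitochondrial translation factors (55.6%), of 6 of 15 mitochondrial aminoacyl-tRNA synthetase genes (40%) and of 4 of 18 genes for mitochondrial transcription and RNA (22.2%). It was in 9 of 80 oxidative phosphorylation genes (11.2%) and in 2 of 92 cytoplasmic ribosomal protein genes (2.17%), against 7.61% of all protein-coding genes. The factor DREF's site TATCGATA, in contrast, was in 28 of the 92 cytoplasmic ribosomal protein genes (30.4%) and in 15 of the 73 mitochondrial ones (20.5%). Of the 9 translation factors 1 (11.1%) was bound, and of the 15 synthetase genes 2 (13.3%), against 23.1% of all protein-coding genes. These lists are short, and whether the E-box goes with binding was not tested.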
